A study of Homo sapiens with 9 samples.

Results

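The genes described here encode proteins of the chemical synapse: subunits of glutamate and GABA receptors, synaptotagmins, neurexins, neuroligins and neuronal pentraxins. They were chosen by gene symbol among the probe sets annotated with 1 gene symbol, which gave 66 probe sets for 65 genes, out of 19460 such probe sets for 18417 genes on the array. SYT2 had 2 probe sets, of which the one with the higher mean was used, as was done for every gene on the array. The cells were H9 human embryonic stem cells, an established cell line, in a transgenic derivative (H9-TCF7L1) in which doxycycline (Dox) induces TCF7L1, a TCF/LEF factor that binds DNA and mostly represses Wnt targets. Altogether 3 groups were profiled with 3 arrays each: H9-TCF7L1 cells kept 48 h in primitive streak (PS) differentiation medium with 1 ug/ml Dox for 48 h, the same cells kept 48 h in PS medium alone, and the same cells left untreated in mTeSR1, a medium for pluripotent culture. All 9 arrays carry the transgene, and none of them received Dox without PS medium, so an effect of Dox itself cannot be told apart from that of TCF7L1. The series was made to look for candidate targets of TCF7L1 by raising its level.

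At a synapse, calcium entry makes synaptotagmins on vesicles trigger fusion and the release of transmitter. Glutamate then opens AMPA, kainate and NMDA receptor channels and activates metabotropic receptors, while GABA opens the chloride channels built from GABA-A receptor subunits. Neurexins on the sending side and neuroligins on the receiving side hold the contact together, and neuronal pentraxins gather AMPA receptors there. Stem cells form no synapses, so these values are array signals for RNA in cells outside the tissue the proteins are best known from.

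TCF7L1 had intensities of 13100.2, 12433 and 2699 in PS medium with doxycycline, 1275, 1542 and 1611 in PS medium, and 3718, 3878 and 3572 in untreated cells. Replicate 3 of the doxycycline group had the least TCF7L1 of its group, below all untreated arrays and above the PS arrays, and the part of this in the results was not tested. The labelled cell states were checked against listed markers. Summed over 9 measured pluripotency markers, intensity was 25867 to 26851 with doxycycline, 21060 to 23157 in PS medium and 32438 to 34345 in untreated cells. Summed over 7 primitive streak markers, it was 14595 to 23413 with doxycycline, 75753 to 95185 in PS medium and 1697 to 1813 in untreated cells. Deposited intensities are on a linear scale, and array medians were 200.4 to 216.5. For the 65 genes intensities ran from 7.64 to 3029. On all 9 arrays, 10 of the genes stayed under 100 and 27 under 250. How much of a dim signal is background was not tested. Intensities of different probe sets are not compared, because probes differ in brightness. Differences are on the scale log2(intensity + 16) after quantile normalization, as mean ± SE with 3 arrays per group, and understate the change of dim genes. Folds are taken from these differences, so they share that limit and are not ratios of the intensities printed. A gene was called at a limma adjusted p under 0.05 over all 18417 genes. In a whole culture, fewer cells of a type and less RNA per cell cannot be told apart.

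In PS medium, 29 of the 65 genes fell and 6 rose relative to untreated cells, that is 44.6% and 9.23%, where 15.7% of all genes tested fell and 14.2% rose. Changes in either direction made up 53.8% of the 65 genes and 29.8% of all genes, and the 3 and 3 arrays did not overlap for 63.1% of the 65 and 42.5% of all genes. The median difference of the 65 genes was -0.28 on the log2 scale, against -0.0055 over all genes. At least 2-fold falls were found for 12 of the 65 (18.5%, against 2.62% of all genes), and at least 2-fold rises for 3 (4.62%, against 3.02%). NPTX1, a neuronal pentraxin, GRIA4, an AMPA receptor subunit, and NLGN1, a neuroligin, had the largest falls. GABRB2, a GABA-A receptor subunit, and SYT4, a synaptotagmin, had the largest rises.

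With doxycycline, 11 of the 65 genes rose and 10 fell relative to PS medium alone (16.9% and 15.4%, against 8.91% and 8.44% of all genes). Changes in either direction made up 32.3%, against 17.4% of all genes, and arrays did not overlap for 38.5%, against 29.9% of all genes. With the replicate number as a block, 13 rose and 16 fell, where 12.7% of all genes rose and 11.6% fell. The median difference was -0.03, against 0.0020 over all genes. GRIA4 and SYT7, a slow calcium sensor, rose at least 2-fold (3.08%, against 1.78% of all genes), and no fall reached 2-fold (1.55% of all genes). The largest fall was 1.98-fold, in GRM2, a metabotropic glutamate receptor. Without doxycycline replicate 3, 12 genes rose and 7 fell, of which 16 were among the 21 called on all arrays, and 8.41% of all genes rose and 7.56% fell.

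With doxycycline, set against untreated cells, 29 of the 65 genes were lower and 8 higher (44.6% and 12.3%, against 14.9% and 15.3% of all genes). Both directions together made up 56.9%, against 30.3% of all genes, and arrays did not overlap for 66.2%, against 44.6% of all genes. At least 2-fold, 11 were lower and 4 higher (16.9% and 6.15%, against 2.47% and 2.74% of all genes). The 3 comparisons share arrays pairwise, so their results are not independent of each other.

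**Figure D1:**
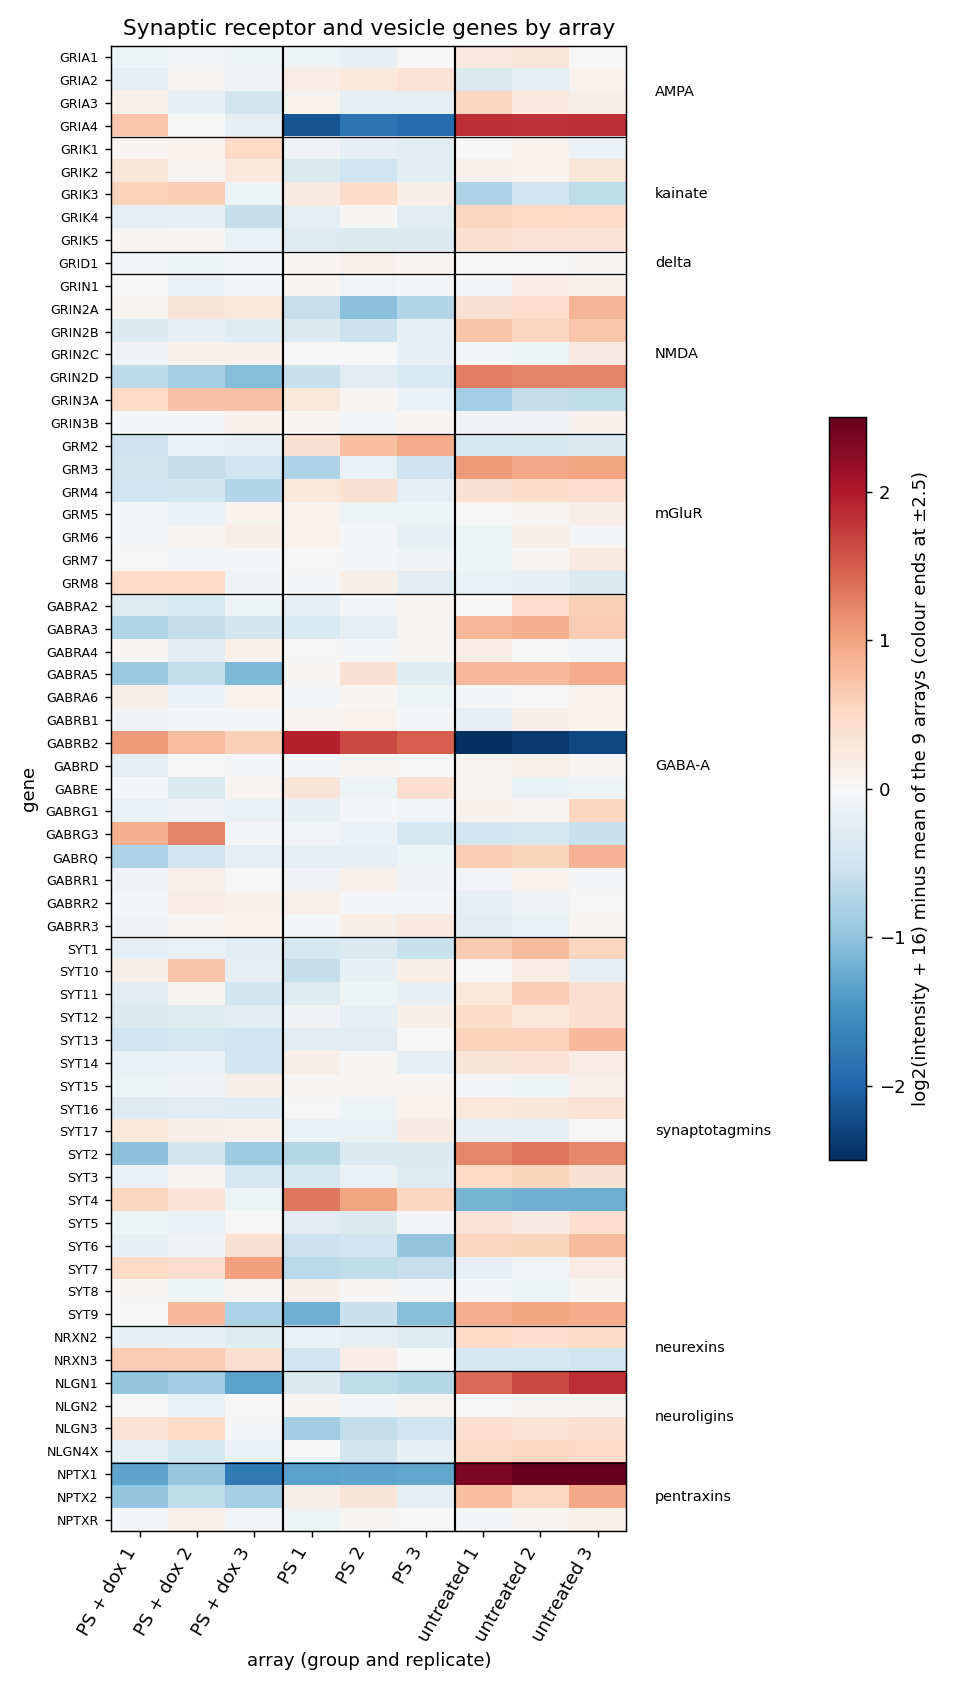
Colour gives the log2 value of each of the 65 genes (rows, by family) on each of the 9 arrays (columns, by group) minus the gene's mean over the arrays, red above and blue below it. NPTX1, GRIA4 and NLGN1 are red on the 3 untreated arrays, where GABRB2 and SYT4 are blue.

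**Figure D2:**
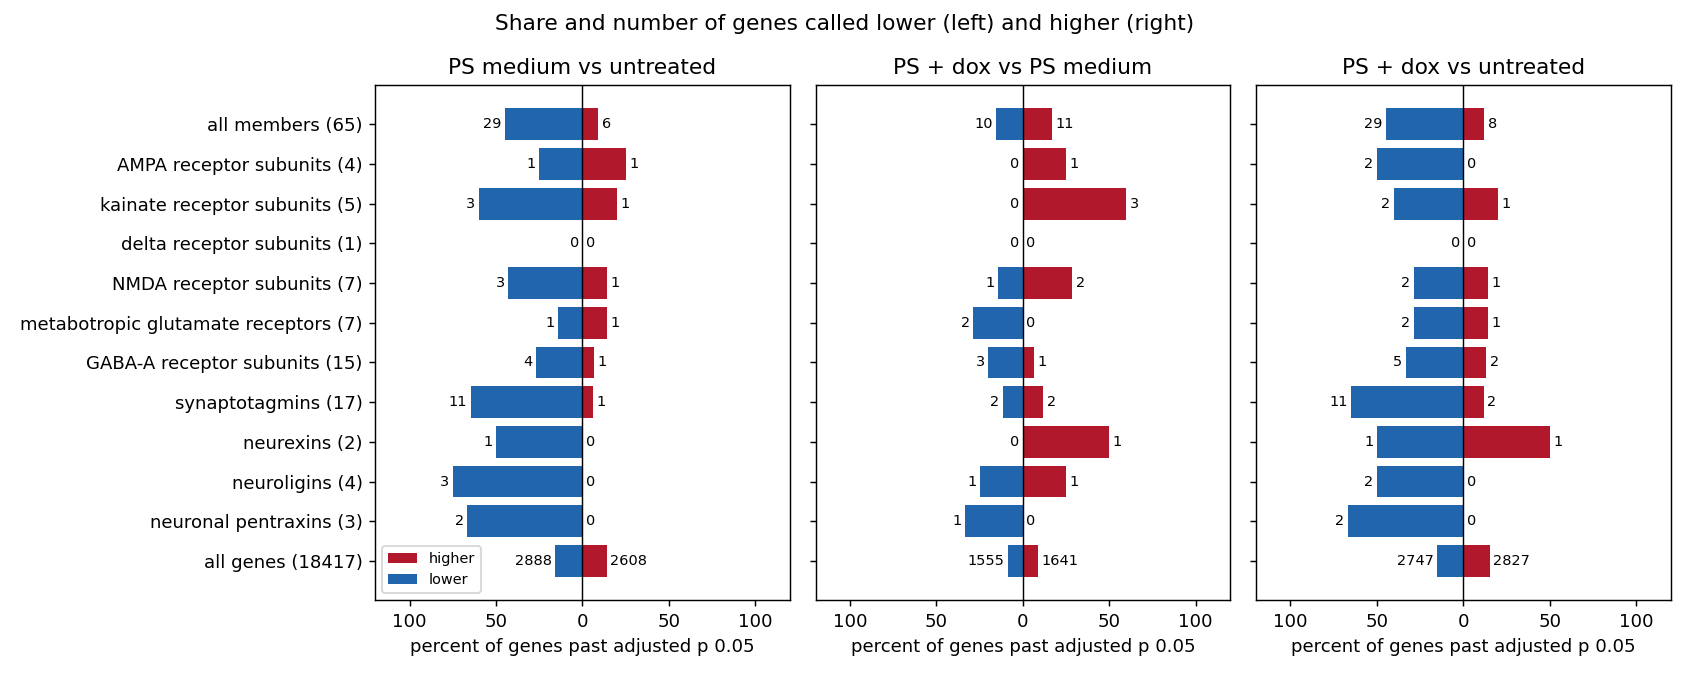
Bars give the percent of each family past the adjusted p threshold, falls to the left and rises to the right of 0, with the number of genes beside each bar and the family size in brackets. For PS medium against untreated cells, 11 of 17 synaptotagmins lie on the falling side and 1 on the rising side. Over all genes, 15.7% fell and 14.2% rose in that comparison.

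The promoters of 4 of the genes that moved by over 4-fold between PS medium and untreated cells are shown. NPTX1 also moved by over 4-fold but had no matched promoter. Promoters are given because the induced protein is a DNA-binding factor, although neither of the groups used for this choice received doxycycline. The windows run from 250 bases before to 50 after the gene's start in RefSeq (GRCh38.p14), 5′ to 3′ on the gene's strand. Capitals mark a match on either strand to CTTTGAT, a core of the sequence bound by TCF/LEF factors, or to CAGCACC, part of the site bound by REST, a repressor of neuronal genes. The motifs did not overlap in these windows. GRIA4 (chr11:105610456-105610755, plus strand) held neither motif, NLGN1 (chr3:173395702-173396001, plus strand) and SYT4 (chr18:43277441-43277740, minus strand) held CAGCACC, and GABRB2 (chr5:161546676-161546975, minus strand) held CTTTGAT, beginning 35 bases before the start.
GRIA4: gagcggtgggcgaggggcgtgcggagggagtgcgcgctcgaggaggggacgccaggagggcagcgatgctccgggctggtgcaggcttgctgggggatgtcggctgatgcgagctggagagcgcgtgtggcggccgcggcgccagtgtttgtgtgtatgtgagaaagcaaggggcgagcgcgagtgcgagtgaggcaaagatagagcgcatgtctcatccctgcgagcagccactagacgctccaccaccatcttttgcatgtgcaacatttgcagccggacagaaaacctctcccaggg
NLGN1: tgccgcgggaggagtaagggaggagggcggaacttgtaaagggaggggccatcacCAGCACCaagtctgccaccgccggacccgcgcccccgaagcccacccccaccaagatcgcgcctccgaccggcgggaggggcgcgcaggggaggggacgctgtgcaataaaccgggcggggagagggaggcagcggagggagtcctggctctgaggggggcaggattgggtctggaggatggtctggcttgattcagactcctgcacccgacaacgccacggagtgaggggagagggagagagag
GABRB2: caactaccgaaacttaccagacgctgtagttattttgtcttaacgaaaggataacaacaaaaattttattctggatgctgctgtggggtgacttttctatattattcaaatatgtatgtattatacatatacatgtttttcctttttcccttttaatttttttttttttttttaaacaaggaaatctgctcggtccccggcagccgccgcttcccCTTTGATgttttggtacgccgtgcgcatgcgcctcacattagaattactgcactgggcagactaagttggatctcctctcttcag
SYT4: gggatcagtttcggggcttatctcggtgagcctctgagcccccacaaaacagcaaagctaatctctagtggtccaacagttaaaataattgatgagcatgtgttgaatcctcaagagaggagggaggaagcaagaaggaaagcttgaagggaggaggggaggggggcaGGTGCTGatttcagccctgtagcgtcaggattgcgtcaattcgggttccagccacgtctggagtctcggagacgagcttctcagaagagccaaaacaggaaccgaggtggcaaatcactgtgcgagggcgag
Promoters were matched for 49 of the 65 genes. CTTTGAT was found in 1 of these 49 (2.04%), namely GABRB2, and in 2.64% of 27305 promoters of the same length. CAGCACC was found in 7 of the 49 (14.3%), namely GRM2, NLGN1, GRM6, SYT15, GRIN2B, SYT4 and SYT3, and in 7.64% of all promoters. Over the 49 promoters the median G and C content was 64.7%, against 58.3% over all promoters. The GABRB2 promoter, with 39.0% G and C, and that of SYT4, with 53.3%, were below both medians, while those of GRIA4 (64.7%) and NLGN1 (68.3%) were at or above them.

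AMPA receptors are tetramers built from GRIA1 to GRIA4 that carry fast glutamate responses, and all 4 were measured. GRIA4 had intensities of 232, 127 and 112 in PS medium with doxycycline, 17.9, 25.5 and 22.3 in PS medium, and 520.4, 505 and 509 in untreated cells. The 3 groups did not overlap, with PS medium lowest and untreated cells highest. In PS medium GRIA4 fell by 3.81 on the log2 scale relative to untreated cells (SE 0.19, 14.0-fold, adjusted p = 2.29e-07). With doxycycline it rose 4.40-fold over PS medium (2.14 ± 0.19, adjusted p = 3.56e-05) and was 3.19-fold lower than in untreated cells (adjusted p = 9.24e-05). GRIA4 was dim in PS medium, and its rise was 1.33 on the log2 scale with a log offset of 64. Without doxycycline replicate 1, the brightest of its group, the rise was 1.87 (adjusted p = 2.27e-05).

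GRIA2, the subunit that when edited makes AMPA receptors poorly permeable to calcium, had intensities of 17.6, 21.9 and 20.9 in PS medium with doxycycline, 28.6, 30.3 and 32.2 in PS medium, and 14.8, 16.5 and 26.5 in untreated cells. The PS arrays were the highest, and the other groups overlapped. GRIA2 rose in PS medium (0.43 ± 0.12, adjusted p = 0.0189). A log offset of 64 in place of 16 gave 0.20, and an offset of 1 gave 0.71. The call was lost on leaving out PS replicate 3 (adjusted p = 0.0600) and on leaving out untreated replicate 1 (0.0794) or 2 (0.0649). With doxycycline GRIA2 differed from PS medium by -0.36 ± 0.12 (adjusted p = 0.0669), and this passed on leaving out untreated replicate 3 (adjusted p = 0.0269), when just these 2 groups were fitted (0.0409) and with the replicate block (0.0272).

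GRIA3 had intensities of 356, 275 and 234 in PS medium with doxycycline, 344, 266 and 273 in PS medium, and 470.2, 383 and 360.2 in untreated cells. The untreated arrays were the highest, and the other groups overlapped. GRIA3 was lower with doxycycline than in untreated cells (-0.48 ± 0.16, adjusted p = 0.0383), a call lost on leaving out doxycycline replicate 2 (adjusted p = 0.0861) or 3 (0.128) and on leaving out untreated replicate 1 (0.153) or 2 (0.0696). In PS medium its difference from untreated cells was -0.44 ± 0.16 (adjusted p = 0.0573), which passed on leaving out doxycycline replicate 1 (adjusted p = 0.0362) or 3 (0.0327), on leaving out PS replicate 1 (0.0369), when just these 2 groups were fitted (0.0320) and with the replicate block (0.00149). GRIA1 had intensities of 63.0, 61.1 and 63.3 in PS medium with doxycycline, 63.5, 55.4 and 66.9 in PS medium, and 87.1, 85.7 and 70.5 in untreated cells. Its difference between PS medium and untreated cells was -0.28 ± 0.10 (adjusted p = 0.0552), and passed on leaving out PS replicate 3 (adjusted p = 0.0415), on leaving out untreated replicate 3 (0.0165), with a log offset of 64 (0.0495), on values as deposited (0.0303) and without a trend in the variance (0.0461). Between PS medium with and without doxycycline the 95% interval of the GRIA1 difference was -0.20 to 0.24.

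**Figure D3:**
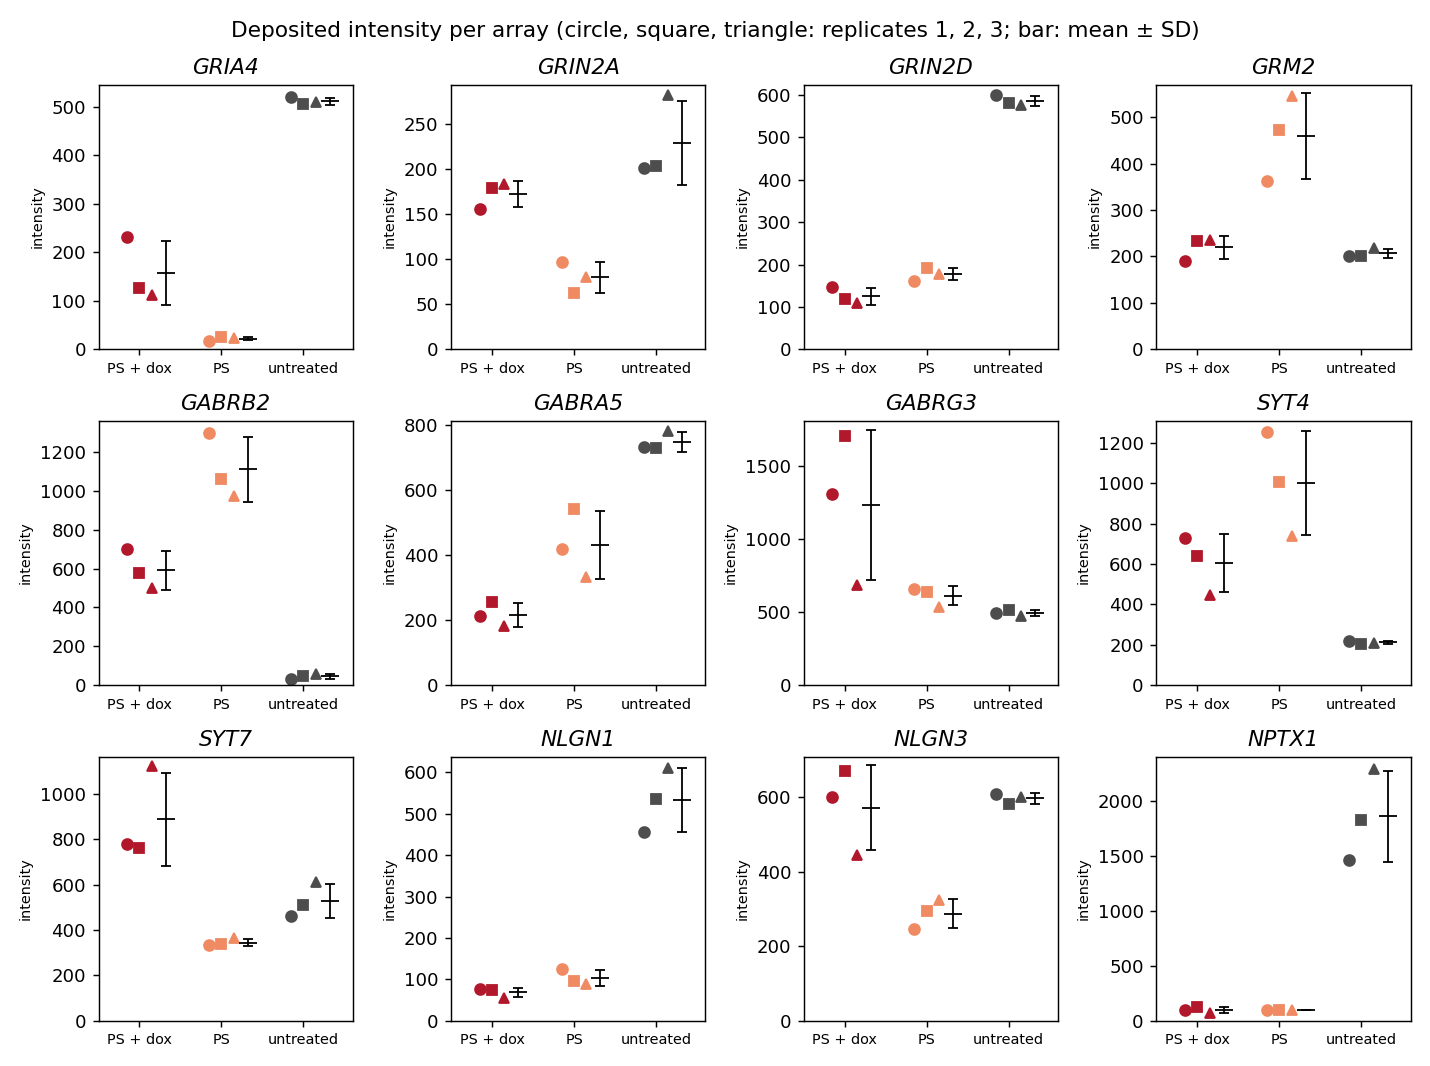
Points give the deposited intensity (linear scale from 0) of 12 genes on each array, with a marker shape per replicate and a bar for the mean ± SD of 3 arrays. GRIA4, GRIN2A and NLGN3 are lowest in PS medium alone, while GABRB2, SYT4 and GRM2 are highest there.

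Kainate receptor subunits, which also form glutamate-gated channels, were measured as GRIK1 to GRIK5. In PS medium GRIK2, GRIK4 and GRIK5 fell by 0.55 to 0.71 on the log2 scale and GRIK3 rose. GRIK3 had intensities of 397, 406 and 239 in PS medium with doxycycline, 309, 357 and 295 in PS medium, and 149.9, 178 and 168 in untreated cells. All PS and doxycycline arrays exceeded the untreated arrays, by 1.89-fold in PS medium (0.92 ± 0.18, adjusted p = 0.00251) and 1.98-fold with doxycycline (0.99 ± 0.18, adjusted p = 0.00167). Doxycycline replicate 3 had the least GRIK3 of the 6 arrays in PS medium.

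With doxycycline GRIK2 rose 1.49-fold over PS medium (0.57 ± 0.10, adjusted p = 0.00270). Its intensities were 129, 97.2 and 125 in PS medium with doxycycline, 77.5, 65.0 and 79.4 in PS medium, and 117, 107 and 134 in untreated cells. GRIK5, a high-affinity subunit, rose 1.24-fold (0.31 ± 0.07, adjusted p = 0.0146), and the call was lost on leaving out doxycycline replicate 1 (adjusted p = 0.0636) or 2 (0.0504) and when just these 2 groups were fitted (0.0520). GRIK1 rose by 0.41 ± 0.13 (adjusted p = 0.0464). That call was lost on leaving out doxycycline replicate 3 (adjusted p = 0.126), on leaving out PS replicate 1 (0.0607), 2 (0.110) or 3 (0.112), on leaving out untreated replicate 1 (0.0701), 2 (0.0584) or 3 (0.0534), on values as deposited (0.0590), with median centring (0.0541), when just these 2 groups were fitted (0.0832) and with the replicate block (0.0548). Without doxycycline replicate 3 the GRIK1 difference was 0.27, and with a log offset of 64 it was 0.24. GRIK4 was lower with doxycycline than in untreated cells (-0.85 ± 0.12, adjusted p = 0.000362). GRID1, a delta receptor subunit, passed in no comparison, also without adjustment of the limma p. It differed by 0.06 ± 0.07 between PS medium and untreated cells (95% interval -0.10 to 0.21).

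NMDA receptors need glutamate and a co-agonist to open, and 7 of their subunits were measured. In PS medium GRIN2A, GRIN2B and GRIN2D, which bind glutamate, fell and GRIN3A, which binds glycine, rose. GRIN2D had intensities of 148, 118.3 and 108 in PS medium with doxycycline, 162, 191 and 178 in PS medium, and 599, 582 and 576 in untreated cells. No array of either PS group reached an untreated array. GRIN2D was lower by 3.15-fold in PS medium than in cells left untreated (-1.65 ± 0.11, adjusted p = 1.59e-06) and 4.30-fold lower with doxycycline (-2.11 ± 0.11, adjusted p = 3.18e-07). Between PS medium with and without doxycycline it fell by 0.45 (SE 0.11, adjusted p = 0.0166), a call lost on leaving out doxycycline replicate 3 (adjusted p = 0.0508), on leaving out PS replicate 2 (0.0603) and when just these 2 groups were fitted (0.0517).

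GRIN2A had intensities of 156, 178 and 183 in PS medium with doxycycline, 96.3, 62.2 and 80.6 in PS medium, and 201, 203 and 282 in untreated cells. The PS arrays lay below all others. GRIN2A was lower by 2.52-fold in PS medium than in cells left untreated (-1.33 ± 0.15, adjusted p = 6.96e-05), rose 1.99-fold with doxycycline relative to PS medium (1.00 ± 0.15, adjusted p = 0.00100), and with doxycycline differed from untreated cells by -0.34 ± 0.15 (adjusted p = 0.120). GRIN2B fell in PS medium (-1.02 ± 0.10, adjusted p = 2.74e-05) and was also lower with doxycycline than in untreated cells (-0.94 ± 0.10, adjusted p = 5.61e-05). Its 95% interval for doxycycline against PS medium alone was -0.14 to 0.31. With a log offset of 64 the GRIN2B falls were -0.63 in PS medium and -0.59 with doxycycline.

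GRIN3A had intensities of 58.9, 66.3 and 73.1 in PS medium with doxycycline, 49.0, 38.4 and 29.9 in PS medium, and 14.1, 18.4 and 19.2 in untreated cells. The doxycycline arrays were the highest and the untreated arrays the lowest, without overlap. GRIN3A rose in PS medium (0.74 ± 0.13, adjusted p = 0.00108) and again with doxycycline over PS medium (0.59 ± 0.13, adjusted p = 0.00727). The difference between doxycycline and untreated cells was 2.53-fold on the offset scale (1.34 ± 0.13, adjusted p = 1.89e-05), with mean intensities of 66.1 and 17.2. All its values were dim, and a log offset of 64 gave 0.35 for PS medium against untreated cells, 0.34 for doxycycline against PS medium and 0.70 for doxycycline against untreated cells. With an offset of 1 the rise in PS medium was 1.17. GRIN1, the subunit shared by NMDA receptors, GRIN2C and GRIN3B passed in no comparison.

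Metabotropic glutamate receptors signal through G proteins, and 7 were measured. GRM2 and GRM3, which form one group of them and lower cyclic AMP, differed in direction. GRM2 had intensities of 190.1, 233 and 235 in PS medium with doxycycline, 362, 472 and 545 in PS medium, and 202, 200.5 and 218 in untreated cells. The PS arrays stood above both other groups, which overlapped. GRM2 rose 2.13-fold in PS medium (1.09 ± 0.14, adjusted p = 0.000149) and with doxycycline was 1.98-fold lower than in PS medium alone (-0.99 ± 0.14, adjusted p = 0.000570). Against untreated cells the doxycycline value differed by 0.10 ± 0.14 (95% interval -0.20 to 0.41).

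GRM3 had intensities of 106, 87.7 and 103 in PS medium with doxycycline, 84.3, 127 and 98.2 in PS medium, and 334, 303 and 316 in untreated cells. Every untreated array was above every other array. GRM3 was 2.79-fold lower in PS medium (-1.48 ± 0.13, adjusted p = 1.09e-05) and 2.86-fold lower with doxycycline than in untreated cells (-1.51 ± 0.13, adjusted p = 9.50e-06). Doxycycline against PS medium gave a 95% interval of -0.32 to 0.25.

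GRM4 and GRM8, of the group found mostly on sending terminals, were called with doxycycline. GRM4 had intensities of 338, 340.3 and 282 in PS medium with doxycycline, 572, 629.8 and 416 in PS medium, and 618, 661 and 635 in untreated cells. The doxycycline arrays were below all others, and PS and untreated arrays overlapped. GRM4 was 1.63-fold lower with doxycycline than in PS medium (-0.71 ± 0.14, adjusted p = 0.00538) and 1.98-fold lower than in untreated cells (-0.99 ± 0.14, adjusted p = 0.000395). GRM8 had intensities of 155, 144 and 100.04 in PS medium with doxycycline, 104, 115 and 83.4 in PS medium, and 96.0, 89.5 and 82.6 in untreated cells. It was higher with doxycycline than in untreated cells (0.53 ± 0.16, adjusted p = 0.0259), and that call was lost on leaving out doxycycline replicate 1 (adjusted p = 0.0975) or 2 (0.0912) and on leaving out untreated replicate 1 (0.0573), 2 (0.0532) or 3 (0.0891). Against PS medium GRM8 differed by 0.35 ± 0.16 (adjusted p = 0.170), and passed without doxycycline replicate 3 (0.54, adjusted p = 0.0144) and with the replicate block (adjusted p = 0.0308). GRM5, GRM6 and GRM7 passed in no comparison.

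GABA-A receptors are pentamers of subunits from several classes, and 15 subunits were measured. In PS medium GABRB2 rose and GABRA2, GABRA3, GABRA5 and GABRQ fell. GABRB2, a beta subunit, had intensities of 699, 576 and 497 in PS medium with doxycycline, 1298, 1061 and 974 in PS medium, and 32.9, 47.3 and 57.6 in untreated cells. The 3 groups did not overlap, with PS medium highest and untreated cells lowest. GABRB2 rose 18.4-fold in PS medium (4.20 ± 0.17, adjusted p = 4.30e-08), which is the largest rise of the 65 genes. With doxycycline it was 1.85-fold lower than in PS medium alone (-0.89 ± 0.17, adjusted p = 0.00431) and 9.92-fold higher than in untreated cells (3.31 ± 0.17, adjusted p = 2.76e-07). GABRA6, whose gene lies next to GABRB2 in the RefSeq listing, passed in no comparison.

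GABRA5, an alpha subunit, and GABRG3, a gamma subunit, are encoded by neighbouring genes. GABRA5 had intensities of 212, 254 and 182 in PS medium with doxycycline, 419, 539.7 and 332 in PS medium, and 731, 729 and 782 in untreated cells. The groups did not overlap and the doxycycline arrays were the lowest. GABRA5 fell by 0.82 in PS medium relative to untreated cells (SE 0.17, adjusted p = 0.00353) and was 1.90-fold lower with doxycycline than in PS medium (-0.93 ± 0.17, adjusted p = 0.00301). GABRG3 had intensities of 1309.5, 1708 and 687 in PS medium with doxycycline, 661, 636 and 538 in PS medium, and 493, 516 and 472 in untreated cells. Doxycycline replicates 1 and 2 stood above all other arrays, and replicate 3 was just above the PS arrays. GABRG3 was 1.87-fold higher with doxycycline than in PS medium (0.90 ± 0.25, adjusted p = 0.0305) and 2.27-fold higher than in untreated cells (1.19 ± 0.25, adjusted p = 0.00459). The call against PS medium was lost on leaving out doxycycline replicate 1 (adjusted p = 0.111) or 2 (0.0902), on leaving out PS replicate 1 (0.0562), 2 (0.0573) or 3 (0.0844), on leaving out untreated replicate 1 (0.0509) and when just these 2 groups were fitted (0.0776). Without doxycycline replicate 3 that difference was 1.27 (adjusted p = 0.000120).

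GABRA3 and GABRQ, also neighbouring genes, were lower in PS medium (-0.97 ± 0.12, adjusted p = 0.000133, and -0.87 ± 0.13, adjusted p = 0.000615) and with doxycycline (-1.39 ± 0.12, adjusted p = 1.09e-05, and -1.18 ± 0.13, adjusted p = 7.47e-05) than in untreated cells. GABRA3 had 111, 117.7 and 140.3 with doxycycline and 152, 163 and 202 in PS medium, a fall of 0.42 (adjusted p = 0.0369) that was lost on leaving out doxycycline replicate 1 (adjusted p = 0.139) or 2 (0.0769), on leaving out PS replicate 2 (0.0697) or 3 (0.106), on leaving out untreated replicate 1 (0.0584) or 2 (0.0509) and when just these 2 groups were fitted (0.0705). GABRQ with doxycycline differed from PS medium by -0.31 ± 0.13 (adjusted p = 0.151), and passed without doxycycline replicate 3 (-0.45, adjusted p = 0.0343) and with the replicate block (adjusted p = 0.0340).

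GABRA2 was dim, at 42.0, 35.8 and 50.2 in PS medium with doxycycline, 46.3, 51.1 and 55.7 in PS medium, and 58.0, 79.4 and 94.98 in untreated cells. It was lower with doxycycline than in untreated cells (-0.62 ± 0.15, adjusted p = 0.00794, or -0.38 with a log offset of 64). Its fall in PS medium (-0.42 ± 0.15, adjusted p = 0.0497) was -0.27 with that offset and was lost on leaving out doxycycline replicate 1 (adjusted p = 0.0679) or 2 (0.0562), on leaving out PS replicate 1 (0.154), 2 (0.0912) or 3 (0.0520), on leaving out untreated replicate 2 (0.149) or 3 (0.175), with a log offset of 1 (0.0547), over all probe sets (0.0507), when just these 2 groups were fitted (0.0657) and without a trend in the variance (0.0504). GABRG1 was dim throughout, at 14.4, 14.8 and 14.5 in PS medium with doxycycline, 14.4, 17.4 and 15.9 in PS medium, and 21.5, 19.2 and 34.9 in untreated cells, and was lower with doxycycline than in untreated cells (-0.38 ± 0.12, adjusted p = 0.0313). An offset of 1 gave -0.65 and one of 64 gave -0.16. The call was lost on leaving out doxycycline replicate 1 (adjusted p = 0.0847), 2 (0.0548) or 3 (0.0756) and on leaving out untreated replicate 3 (0.0769). Without untreated replicate 3 it was -0.23. The other 8 subunits passed in no comparison of the main fit. GABRE differed from PS medium by -0.32 ± 0.15 with doxycycline and passed with the replicate block (adjusted p = 0.0408). With the block GABRE was also higher in PS medium than in untreated cells (0.30, adjusted p = 0.0373), as was GABRR3 (0.24, 0.0404). GABRG1 was lower there (-0.33, 0.0459).

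**Figure D4:**
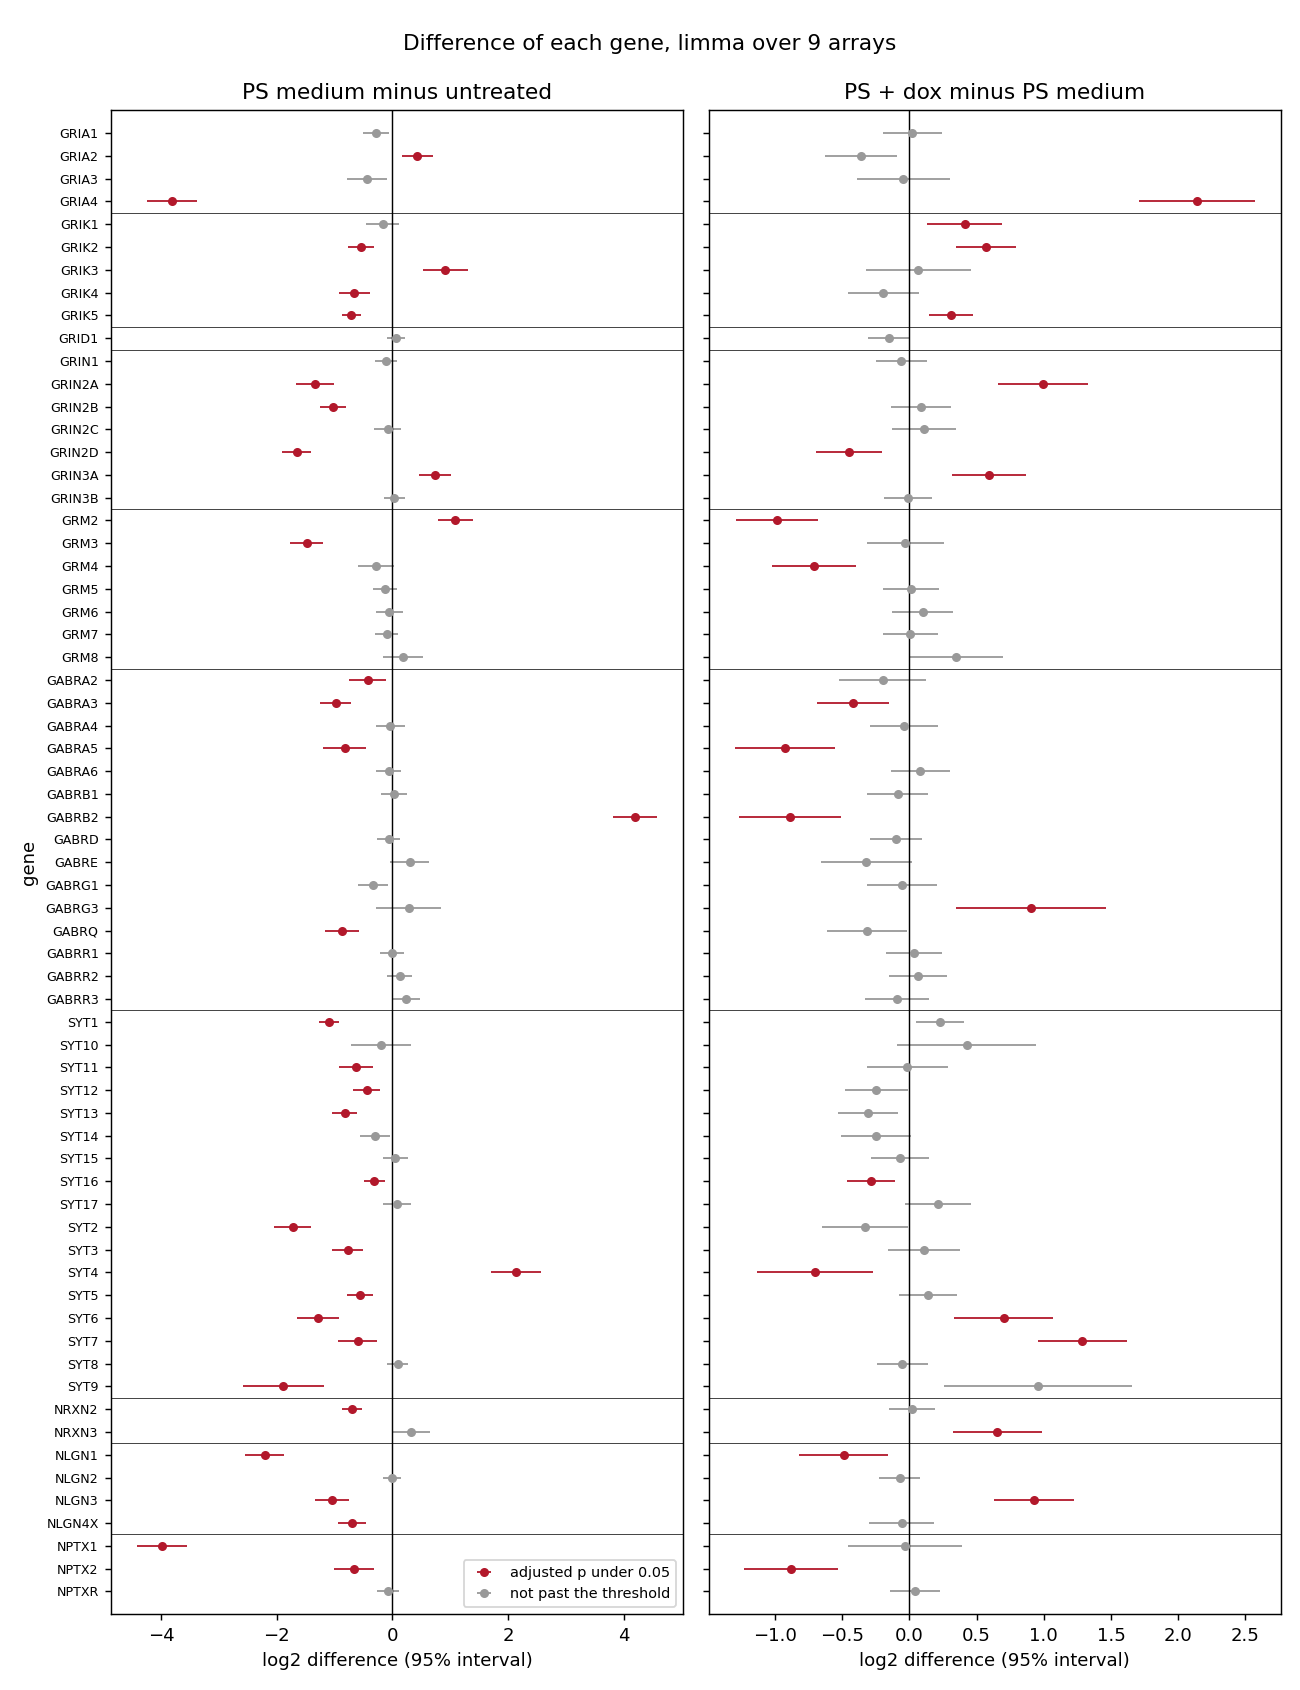
Points give the log2 difference of each of the 65 genes with its 95% interval, for PS medium minus untreated cells (left) and PS medium with doxycycline minus PS medium (right, on a narrower axis), red where the adjusted p is under 0.05. GRIA4 lies at -3.81 on the left and at 2.14 on the right, and both panels share the PS arrays.

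Synaptotagmins are membrane proteins with paired C2 domains, many of which sense calcium, and 17 were measured. In PS medium 11 of them fell and SYT4 rose, with a median of -0.56, and 5 passed in neither direction. Over all genes, 15.7% fell and 14.2% rose there, with a median of -0.0055. SYT1 and SYT2, calcium sensors for fast release, fell together with SYT9, a related sensor. SYT2 had intensities of 114, 164 and 127 in PS medium with doxycycline, 148, 185 and 189 in PS medium, and 588, 639.9 and 578 in untreated cells. All untreated arrays exceeded all others. SYT2 was 3.29-fold lower in PS medium (-1.72 ± 0.15, adjusted p = 8.39e-06) and 4.14-fold lower with doxycycline than in untreated cells (-2.05 ± 0.15, adjusted p = 2.52e-06). Its second probe set gave falls of the same direction, -0.84 in PS medium and -0.63 with doxycycline. With doxycycline SYT2 differed from PS medium by -0.33 ± 0.15 (adjusted p = 0.166), and passed with the replicate block (adjusted p = 0.0469). The second probe set went the other way there, at 0.21 (adjusted p = 0.237), so the direction of SYT2 between these groups depends on the probe set.

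SYT9 had intensities of 102, 178 and 52.0 in PS medium with doxycycline, 34.6, 62.2 and 38.1 in PS medium, and 209, 211 and 211 in untreated cells. The untreated arrays were above all others. The doxycycline and PS arrays overlapped, since doxycycline replicate 3 was below PS replicate 2. SYT9 was lower by 3.69-fold in PS medium than in cells left untreated (-1.88 ± 0.32, adjusted p = 0.00109). With doxycycline it was lower than in untreated cells (-0.93 ± 0.32, adjusted p = 0.0483), or -0.53 without doxycycline replicate 3. That call was lost on leaving out doxycycline replicate 1 (adjusted p = 0.105) or 3 (0.127), on leaving out PS replicate 1 (0.0563) or 3 (0.0527), on leaving out untreated replicate 1 (0.109), 2 (0.113) or 3 (0.104), with a log offset of 1 (0.0585) and without a trend in the variance (0.0552). Against PS medium the doxycycline difference was 0.96 ± 0.32 (adjusted p = 0.0643), and it passed with the replicate block (adjusted p = 0.0164) and without doxycycline replicate 3 (1.36, adjusted p = 0.00288).

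SYT1 had 1029.8, 1095 and 1008 with doxycycline, 909, 948 and 835 in PS medium and 1869, 2095 and 1728 in untreated cells. It was 2.14-fold lower in PS medium (-1.095 ± 0.08, adjusted p = 3.21e-06) and 1.83-fold lower with doxycycline than in untreated cells (-0.87 ± 0.08, adjusted p = 1.80e-05). The doxycycline arrays were all above the PS arrays, by 0.23 ± 0.08 (adjusted p = 0.0846, and 0.0131 with the replicate block).

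SYT4, found on vesicles and lacking calcium binding by one of its C2 domains, had intensities of 727, 640.1 and 448 in PS medium with doxycycline, 1253, 1006 and 739 in PS medium, and 219, 204 and 210.1 in untreated cells. The PS arrays were the highest and the untreated arrays the lowest, without overlap. SYT4 rose 4.39-fold in PS medium (2.13 ± 0.20, adjusted p = 1.50e-05) and was 2.70-fold higher with doxycycline than in untreated cells (1.43 ± 0.20, adjusted p = 0.000273). Between PS medium with and without doxycycline it fell by 0.70 (SE 0.20, adjusted p = 0.0308), a call lost on leaving out doxycycline replicate 2 (adjusted p = 0.0544) or 3 (0.0915), on leaving out PS replicate 1 (0.112) or 2 (0.0742), on leaving out untreated replicate 1 (0.0509) and when just these 2 groups were fitted (0.0779).

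SYT7, a slow calcium sensor also found on lysosomes, had intensities of 779, 762 and 1125 in PS medium with doxycycline, 332, 339 and 364 in PS medium, and 462, 511 and 609.7 in untreated cells. The doxycycline arrays were the highest and the PS arrays the lowest, without overlap. SYT7 rose 2.44-fold with doxycycline over PS medium (1.29 ± 0.15, adjusted p = 0.000176) and 1.61-fold over untreated cells (0.69 ± 0.15, adjusted p = 0.00534), and fell in PS medium relative to untreated cells (-0.60 ± 0.15, adjusted p = 0.0111). Doxycycline replicate 3 had the most SYT7, and without it the rise over PS medium was 1.103 (adjusted p = 0.000138).

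SYT6 had intensities of 579.8, 629.7 and 858 in PS medium with doxycycline, 443, 466 and 328 in PS medium, and 943, 955 and 1117 in untreated cells. It was lower by 2.44-fold in PS medium than in cells left untreated (-1.29 ± 0.17, adjusted p = 0.000174) and rose 1.63-fold with doxycycline over PS medium (0.70 ± 0.17, adjusted p = 0.0134). The doxycycline arrays stayed below the untreated arrays (-0.59 ± 0.17, adjusted p = 0.0206), and that call was lost on leaving out doxycycline replicate 1 (adjusted p = 0.0823) or 2 (0.0660) and on leaving out untreated replicate 3 (0.0798). SYT3, SYT5, SYT11, SYT12, SYT13 and SYT16 fell by 0.31 to 0.83 in PS medium and were also lower with doxycycline than in untreated cells, by 0.42 to 1.13. SYT13, with the largest falls of these, had 132, 126 and 130.2 with doxycycline, 159, 150.2 and 187 in PS medium and 293, 285 and 345 in untreated cells.

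SYT16 was lower with doxycycline than in PS medium (-0.29 ± 0.08, adjusted p = 0.0314), a call lost on leaving out doxycycline replicate 1 (adjusted p = 0.0925), 2 (0.0616) or 3 (0.0727), on leaving out PS replicate 1 (0.0915) or 3 (0.0913), on leaving out untreated replicate 2 (0.0512) and when just these 2 groups were fitted (0.0722). Its fall in PS medium was lost on leaving out PS replicate 2 (adjusted p = 0.0564) and on leaving out untreated replicate 3 (0.0510). SYT14 was lower with doxycycline than in untreated cells (-0.55 ± 0.12, adjusted p = 0.00480). In PS medium SYT14 differed from untreated cells by -0.30 ± 0.12 (adjusted p = 0.0799). That passed with the replicate block (adjusted p = 0.0075) and without doxycycline replicate 3 (0.0481). With the replicate block, SYT13 (adjusted p = 0.0300) and SYT14 (0.0295) also fell between PS medium with and without doxycycline, and SYT17 was higher with doxycycline than in untreated cells (0.0339). SYT8, SYT10 and SYT15 passed in no comparison.

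Neurexins and neuroligins bind each other across the synapse. NLGN1, found at excitatory synapses, had intensities of 75.7, 75.2 and 54.9 in PS medium with doxycycline, 125, 96.0 and 89.9 in PS medium, and 456, 534 and 609 in untreated cells. The untreated arrays were far above all others, and the doxycycline arrays were the lowest. NLGN1 was 4.63-fold lower in PS medium (-2.21 ± 0.15, adjusted p = 1.68e-06) and 6.49-fold lower with doxycycline than in untreated cells (-2.70 ± 0.15, adjusted p = 4.34e-07). With doxycycline it was lower than in PS medium (-0.49 ± 0.15, adjusted p = 0.0468), a call lost on leaving out doxycycline replicate 1 (adjusted p = 0.0776) or 3 (0.137), on leaving out PS replicate 1 (0.166) or 2 (0.0747), on leaving out untreated replicate 2 (0.0704), with a log offset of 64 (0.0779) and when just these 2 groups were fitted (0.0654).

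NLGN3 had intensities of 602, 669 and 445 in PS medium with doxycycline, 246, 294 and 324 in PS medium, and 609, 581 and 601 in untreated cells. The PS arrays were below all others, and the doxycycline and untreated arrays overlapped. NLGN3 was lower by 2.06-fold in PS medium than in cells left untreated (-1.04 ± 0.14, adjusted p = 0.000193) and rose 1.90-fold with doxycycline over PS medium (0.93 ± 0.14, adjusted p = 0.000783). With doxycycline it differed from untreated cells by -0.11 ± 0.14 (95% interval -0.41 to 0.19). Without doxycycline replicate 3, the lowest of its group, the rise over PS medium was 1.08.

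NLGN4X had intensities of 1792, 1583 and 1897 in PS medium with doxycycline, 2137, 1556 and 1895 in PS medium, and 2908, 3029 and 2930.5 in untreated cells. It was lower than in untreated cells both in PS medium (-0.69 ± 0.11, adjusted p = 0.000725) and with doxycycline (-0.75 ± 0.11, adjusted p = 0.000442). NLGN2, found at inhibitory synapses, had intensities of 999, 899 and 979 in PS medium with doxycycline, 1018, 968 and 1047 in PS medium, and 979.9, 1006 and 997 in untreated cells. The groups overlapped in each comparison, and the 95% interval of the NLGN2 difference was -0.16 to 0.14 for PS medium against untreated cells and -0.23 to 0.08 for doxycycline against PS medium.

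NRXN2 had intensities of 231, 218 and 210.4 in PS medium with doxycycline, 231, 212 and 205 in PS medium, and 374, 352 and 364 in untreated cells. It was 1.62-fold lower in PS medium (-0.70 ± 0.08, adjusted p = 5.57e-05) and 1.60-fold lower with doxycycline than in untreated cells (-0.68 ± 0.08, adjusted p = 7.29e-05). NRXN3 had intensities of 289, 275 and 242 in PS medium with doxycycline, 126, 199 and 175 in PS medium, and 136, 130.4 and 127 in untreated cells. The doxycycline arrays were above all others. NRXN3 rose 1.57-fold with doxycycline over PS medium (0.65 ± 0.15, adjusted p = 0.0114) and 1.98-fold over untreated cells (0.98 ± 0.15, adjusted p = 0.000596). In PS medium it differed from untreated cells by 0.33 ± 0.15 (adjusted p = 0.133), and by 0.52 without PS replicate 1, which passed (adjusted p = 0.00613).

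Neuronal pentraxins are secreted or membrane-bound proteins that cluster AMPA receptors. NPTX1 had intensities of 101.4, 126 and 71.4 in PS medium with doxycycline, 103, 99.0 and 100.2 in PS medium, and 1468, 1827 and 2295 in untreated cells. No array of either PS group came near the lowest untreated array. NPTX1 was 15.8-fold lower in PS medium (-3.98 ± 0.19, adjusted p = 1.51e-07) and 16.2-fold lower with doxycycline than in untreated cells (-4.01 ± 0.19, adjusted p = 1.64e-07), the largest falls of the 65 genes. Between PS medium with and without doxycycline it differed by -0.03 ± 0.19 (95% interval -0.46 to 0.40).

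NPTX2 had intensities of 147, 181 and 165 in PS medium with doxycycline, 333, 379 and 251.4 in PS medium, and 510.0, 438 and 584 in untreated cells. The groups did not overlap, with the doxycycline arrays lowest and the untreated arrays highest. NPTX2 fell by 0.66 in PS medium (SE 0.16, adjusted p = 0.00898), was 1.84-fold lower with doxycycline than in PS medium (-0.88 ± 0.16, adjusted p = 0.00292), and was 2.92-fold lower with doxycycline than in untreated cells (-1.54 ± 0.16, adjusted p = 3.83e-05). NPTXR, the membrane-bound member, had intensities of 327, 366 and 319 in PS medium with doxycycline, 308, 337 and 335 in PS medium, and 331, 344 and 362 in untreated cells. The groups overlapped, with a 95% interval of -0.26 to 0.11 for PS medium against untreated cells and -0.15 to 0.23 for doxycycline against PS medium.

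Other synaptic genes were read from 6 lists that do not hold the 65 genes. Over all genes, 14.2% rose and 15.7% fell in PS medium relative to untreated cells. With doxycycline relative to PS medium, 8.91% of all genes rose and 8.44% fell. Vesicle proteins fell in 9 of 21 cases and rose in 2 in PS medium relative to untreated cells (median -0.23), led by SLC18A2, the vesicular monoamine transporter (-1.89), and SYNGR3, a synaptogyrin (-1.05). With doxycycline 3 of them fell and 2 rose relative to PS medium (median -0.10). Postsynaptic scaffolds fell in 5 of 17 cases in PS medium (median -0.18), with no rise, also without adjustment of the limma p (0 of 17). With doxycycline 8 of the 17 rose and 1 fell relative to PS medium (median 0.27). DLG2 (0.74) and SHANK2 (0.65) had the largest rises, and GRIP2, which binds AMPA receptors, fell (-0.47). Auxiliary subunits of receptors rose in 6 of 17 cases and fell in 2 in PS medium (median 0.17). With doxycycline 7 of them fell and 1 rose (median -0.21). NETO2, a partner of kainate receptors, rose in PS medium (1.58) and fell with doxycycline (-0.74), while CACNG4, a partner of AMPA receptors, rose with doxycycline (2.11).

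SNAREs and release machinery had 3 rises and 3 falls among 17 genes in PS medium (median 0.12) and 1 rise and 3 falls with doxycycline (median -0.02). UNC13A, which primes vesicles, fell in both (-1.11 and -0.85). Active zone scaffolds had 3 rises and 4 falls among 16 genes in PS medium (median 0.05) and 1 rise and 4 falls with doxycycline (median -0.14). Other synaptic organizers had 8 rises and 9 falls among 37 genes in PS medium (median -0.13) and 5 rises and 6 falls with doxycycline (median 0.08). Beside these counts, 14.2% of all genes rose and 15.7% fell in PS medium, and 8.91% rose and 8.44% fell with doxycycline. These lists were not tested as sets.

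Markers of neurons were read beside the 65 genes, since a culture could hold such cells. Over all genes, 15.7% fell and 14.2% rose in PS medium relative to untreated cells. With doxycycline relative to PS medium, 8.44% of all genes fell and 8.91% rose. Of 16 measured neuron markers, 6 fell and 1 rose in PS medium relative to untreated cells, and 2 fell and 1 rose with doxycycline relative to PS medium. Their summed intensity was 3702 to 4323 with doxycycline, 4411 to 5300 in PS medium and 4969 to 5750 in untreated cells. SNAP25, SYP, SYN1 and SLC17A6 of this list are also in the synaptic lists above. Neural progenitor markers summed to 6466 to 7120 with doxycycline, 9646 to 10959 in PS medium and 7095 to 7945 in untreated cells over 10 genes, of which 1 rose and 2 fell in PS medium and 2 fell with doxycycline. OTX2, also known from pluripotent cells, was the progenitor marker that rose in PS medium (1.08), and it fell with doxycycline (-1.55). Of 5 neuroendocrine markers, 2 fell in PS medium and 1 with doxycycline, and they summed to 1281 to 1440 with doxycycline, 1274 to 1595 in PS medium and 1901 to 2059 in untreated cells. Fibroblast markers had 1 rise and 2 falls among 8 in PS medium and 1 of each with doxycycline, and summed to 3312 to 4127 with doxycycline, 3307 to 3566 in PS medium and 6182 to 6394 in untreated cells. Such sums weigh the brightest probe sets most. Between PS medium and untreated cells the median difference was -0.25 for neuron, -0.07 for progenitor, -0.20 for neuroendocrine and -0.06 for fibroblast markers. The lowest intensity of these markers was 11.4, for PAX6 on an untreated array. An array intensity above 0 does not show that an RNA was present. The part of these cell types in the differences of the 65 genes was not tested.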

How the data were processed

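RNA of 9 samples was measured on Affymetrix arrays, 3 per group. The values deposited by the authors are linear intensity, 1 value a probe set, from Affymetrix Expression Console 1.1.1 and PLIER 2.0, per the submitters' processing notes. How background was corrected and arrays were normalized is not given in the sources used here. Of 33297 probe sets, 19460 had 1 gene symbol, 1754 several and 12083 none listed. Current symbols came from a RefSeq gene listing (GRCh38.p14), in which 19429 of the first kind were found by gene number. 1 probe set shared by GABRE and another gene was not used.

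Values were converted to log2(intensity + 16) and quantile-normalized, because array medians spanned 0.103 on the log2 scale. Quantile normalization can compress changes of the brightest genes. The fit had a mean for each group over all 9 arrays (limma 3.58.1, R 4.3.3, lmFit, trended eBayes, 6 residual degrees of freedom), with Benjamini-Hochberg adjustment over 18417 genes. Named genes were up to 8 rises and 8 falls per comparison past the threshold with non-overlapping arrays, plus the AMPA, neurexin, neuroligin and pentraxin families. Context lists were named by their largest changes past the threshold. Members and lists were chosen with earlier results of these data known. The procedure was tested on simulated data. Figures used Python 3.11.15 and matplotlib 3.10.9.

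Whether replicates were separate cultures is not in the labels, and the p-values thus reflect the spread of these samples, possibly a technical one. Deviations from group means of arrays with the same replicate number correlated across genes at 0.245, 0.428 and 0.246 for the pair doxycycline and PS medium, and at 0.246, 0.309 and 0.297 for the pair doxycycline and untreated. All were positive, so the numbers may pair the arrays, which the labels do not state. The main fit has no replicate term, so its p-values do not use any pairing. The replicate block is given as an alternative.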

Additional observations from a re-analysis of the deposited data

How the results depend on the processing

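The alternatives were a log offset of 1 or 64, values as deposited, median centring, leaving out the dimmest 25% of genes, testing all probe sets with 1 symbol, fitting only the 2 groups compared, eBayes without a trend, the replicate block, and leaving out each array in turn. Against untreated cells, the count of falls in PS medium was 26 to 32 under the alternatives that leave out no single array. With 1 array left out it was 27 to 31. The rises were 4 to 8 and 5 to 7, in the same order. Under these alternatives 12.1% to 19.9% of all genes fell and 10.1% to 17.9% rose. The lowest counts, 26 and 4, came with the dimmest 25% left out, where 50 of the 65 genes were tested. In that setting 19.3% of all genes fell and 17.9% rose. For PS medium with doxycycline against untreated cells the falls were 26 to 30 and 26 to 29 and the rises 6 to 9 and 7 to 9. Here 11.8% to 18.9% of all genes fell and 10.9% to 19.6% rose. With the dimmest 25% left out and 50 genes tested, the counts were 26 and 6. For doxycycline against PS medium, rises were 8 to 13 and 9 to 12 and falls with 1 array left out 7 to 11. Falls there came to 6 in a fit of the 2 groups alone, where fewer arrays estimate the spread, and to 16 with the replicate block. Over all genes the falls were 6.39% and 11.6% in these 2 settings. Across all alternatives, 6.14% to 11.6% of all genes fell and 6.64% to 12.7% rose. The block moved no other count by over 1.5 times. Between PS medium and untreated cells same-numbered arrays correlated at 0.0856, 0.397 and 0.271. These values were also positive, so the numbers may pair those groups too, which the labels do not state. The first value was lower than any found for the other pairs of groups. For PS medium against untreated cells the block gave 8 rises and 32 falls, against 6 and 29 without it.

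Of 1980 values for 111 gene results, 1856 kept direction and side of the threshold, 92 lost the threshold, 16 gained it and 16 changed sign. None of the 16 sign changes was in a called value. NLGN2 in PS medium became 0.023 as deposited and 0.058 with median centring, and ranged over -0.030 to 0.024 with 1 array left out. For doxycycline against PS medium the ranges that crossed 0 with 1 array left out were -0.032 to 0.078 for GRIA1, -0.19 to 0.095 for GRIA3, -0.18 to 0.052 for NLGN4X, -0.23 to 0.18 for NPTX1, -0.022 to 0.075 for NPTXR and -0.019 to 0.057 for NRXN2. For doxycycline against untreated cells they were -0.024 to 0.21 for GRIA2 and -0.22 to 0.041 for NLGN3. The cause was not tested. Dim genes such as GRIA2, GRIN3A and GABRG1 are limited by signal near the log offset. Leaving out the dimmest 25% removed some members from the test.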

Other observations

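Genes of the wider synaptic and neuronal lists are given here by array, chosen after their values were seen. MAP2, a microtubule protein of neurons, had intensities of 72.3, 91.1 and 166 in PS medium with doxycycline, 12.04, 15.9 and 17.2 in PS medium, and 147, 133 and 123 in untreated cells. The PS arrays were the lowest. In PS medium MAP2 fell by 2.24 on the log2 scale relative to untreated cells (adjusted p = 1.85e-05), and with doxycycline it rose by 1.97 over PS medium (adjusted p = 0.000102). MAP2 was the 1 neuron marker of 16 that rose with doxycycline over PS medium, and 2 fell. Over all genes, 8.91% rose and 8.44% fell there. The median difference of the 16 markers was -0.09. Their summed intensity was 3702 to 4323 with doxycycline and 4411 to 5300 in PS medium. GAD1, which makes GABA from glutamate, had intensities of 213, 233 and 249 in PS medium with doxycycline, 491, 559 and 443 in PS medium, and 24.05, 23.1 and 33.1 in untreated cells. It rose 12.2-fold in PS medium (adjusted p = 9.17e-09) and was 2.07-fold lower with doxycycline than in PS medium (adjusted p = 0.000127). GAD2, the other enzyme of this step, had intensities of 60.5, 61.3 and 61.3 in PS medium with doxycycline, 72.2, 62.3 and 70.8 in PS medium, and 67.4, 65.8 and 76.9 in untreated cells and passed in neither comparison. GAD1 was the 1 neuron marker of 16 that rose in PS medium relative to untreated cells, and 6 fell (median -0.25). Over all genes, 14.2% rose and 15.7% fell in PS medium.

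LRRTM1, which binds neurexins, had intensities of 254, 405 and 268 in PS medium with doxycycline, 340.2, 417 and 536 in PS medium, and 13.1, 35.8 and 12.4 in untreated cells and rose 12.6-fold in PS medium (adjusted p = 2.42e-06). CBLN1, a secreted partner of neurexins and delta receptors, had intensities of 683, 1006 and 817 in PS medium with doxycycline, 1629, 1995 and 1810.1 in PS medium, and 261, 256 and 193 in untreated cells. It rose 7.28-fold in PS medium (adjusted p = 2.74e-07) and was 2.16-fold lower with doxycycline (adjusted p = 0.000476). RIMBP2, an active zone protein, had intensities of 154, 137 and 122 in PS medium with doxycycline, 308, 388 and 636 in PS medium, and 42.9, 31.3 and 41.2 in untreated cells, a rise of 8.22-fold in PS medium (adjusted p = 1.59e-06) and a level 2.82-fold lower with doxycycline than in PS medium (adjusted p = 0.000506). CACNG4 had intensities of 1316, 2099.6 and 1577 in PS medium with doxycycline, 284, 476 and 363 in PS medium, and 229, 247 and 239 in untreated cells, and the doxycycline arrays were the highest (4.32-fold over PS medium, adjusted p = 2.85e-05). In PS medium, other synaptic organizers had 8 rises and 9 falls among 37 genes, and active zone scaffolds 3 and 4 among 16. With doxycycline relative to PS medium, CACNG4 was the 1 auxiliary subunit of 17 that rose, and 7 fell. Over all genes, 14.2% rose and 15.7% fell in PS medium, and 8.91% rose and 8.44% fell with doxycycline.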
